A study of Mus musculus with 45 samples.

Results

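The wild-type regulatory T cells (Tregs) of a mouse melanoma were compared with wild-type Tregs of a lymph node that does not drain the tumour. All libraries that the labels give as Tregs of genotype WT were taken, which were 5 from tumours and 5 from lymph nodes, 10 of the 45 samples of the series. The series holds Tregs of WT mice, Tregs labelled N that lack neuropilin-1 (Nrp1), and Nrp1-sufficient and Nrp1-deficient Tregs of heterozygous mice. It also holds libraries labelled tumour effector T cells. All are from mice bearing B16 melanoma, a transplantable skin tumour line. The WT groups carry no engineered allele and no drug treatment in the labels, and differ only in tissue. Each library was made from 5000 sorted cells by low-input cDNA amplification, and the mice's age, the sorting markers and whether replicates came from separate animals are not stated, so the p-values reflect how far these samples spread, and that spread may be technical. Replicates 2, 3 and 4 were single sorted and the replicates named ds1 and ds2 were read as double sorted. Levels are given in CPM, read counts scaled to a common library size, and 5 values in a row always stand in the order 2, 3, 4, ds1 and ds2.

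Tregs are CD4 T cells that hold back immune responses and depend on the transcription factor Foxp3. Those of lymphoid organs circulate between blood and lymph nodes through receptors such as Ccr7 and S1pr1, and keep quiescence factors such as Foxp1, Klf2 and Tcf7. Tregs that enter inflamed tissue or tumours are known to exchange this program for inflammatory chemokine receptors, costimulatory receptors, suppressive molecules and a more glycolytic metabolism.

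Total reads ran from 4000583 to 24113709 per library and genes with a read from 11290 to 20802. Single libraries stood apart in the first 3 principal components of the 10 libraries, node ds1 in the first (25.6% of the variance), tumour ds1 in the second and node replicate 3 in the third, and counts without each replicate number are given beside the results. Reads of the Y-linked genes Ddx3y, Eif2s3y, Kdm5d and Uty summed to over 5 CPM in 2 libraries, both numbered 3. The T cell and Treg genes Cd4, Cd3e, Il2ra and Ikzf2 were present in all 10 libraries. Foxp3 was read at 11.9, 17.5, 5.92, 24.8 and 42.7 CPM in tumour and 5.25, 0.606, 0, 0.958 and 57.1 CPM in lymph node libraries, which overlapped (adjusted p = 0.414 for a log2 fold change of 3.43, SE 1.43), and node replicate 4 held no Foxp3 read. The Foxp3 log2 fold change was 0.69 with no block on replicate number (adjusted p = 0.908) and 3.49 with DESeq2, which called it (adjusted p = 0.00313).

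Of 10427 genes tested, 114 differed between the tissues (1.09% of those tested, edgeR with the replicate number as a block, adjusted p below 0.05). In the tumour 81 were higher (0.777%) and 33 lower (0.316%). These shares are the background for the counts in gene lists below, and the lists were chosen with earlier results of these data known. All 114 differed the same way in all 5 replicate pairs. Among all tested genes 937 (8.99%) were higher and 713 (6.84%) lower in all 5 pairs. In 95 of the 114 the tumour and node values did not overlap, against 445 genes without overlap among all tested (4.27%). The 114 were chosen by a test on these same libraries, so both counts were in part set beforehand. The log2 fold changes ran from 1.05 to 11.20 among the higher genes and in size from 1.25 to 6.48 among the lower ones, while the median of all tested genes was 0.08. Calls were few among low genes. None of 2052 genes with a mean under 10 CPM was called, against 38 of 541 at 300 CPM or more (7.02%), and the median SE fell from 1.46 to 0.27 between these bands. The count of 114 was 26, 74, 21, 283 and 43 without replicates 2, 3, 4, ds1 and ds2. The 20 genes called in all 5 were Aldoa, Anxa2, Ccl3, Ccl4, Ccl5, Cxcr6, Fgl2, Glrx, Gp49a, Gzmb, Hif1a, Id2, Ifngr1, Ly6a, Mxd1, Nkg7, Odc1, Tnfrsf9 and Tpi1, which were higher, and Id3, which was lower. Without the block 110 genes were called, 75 of them among the 114. Among genes named here, Actn1, Bnip3, Cd82, Cish, Entpd1, Ero1l, Gbp6, Gm14085, Gpr83, H2-Oa, Hmox1, Ifi27l2a, Ifit1, Ldha, Lef1, Ly6c1, Maf, Mt1, Mtss1, Pdcd1, Pkm, Rpl35, Rps19, Srgn and Stat3 were then not called. In bulk libraries, fewer cells of a type and less RNA per cell cannot be told apart.

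**Figure D1:**
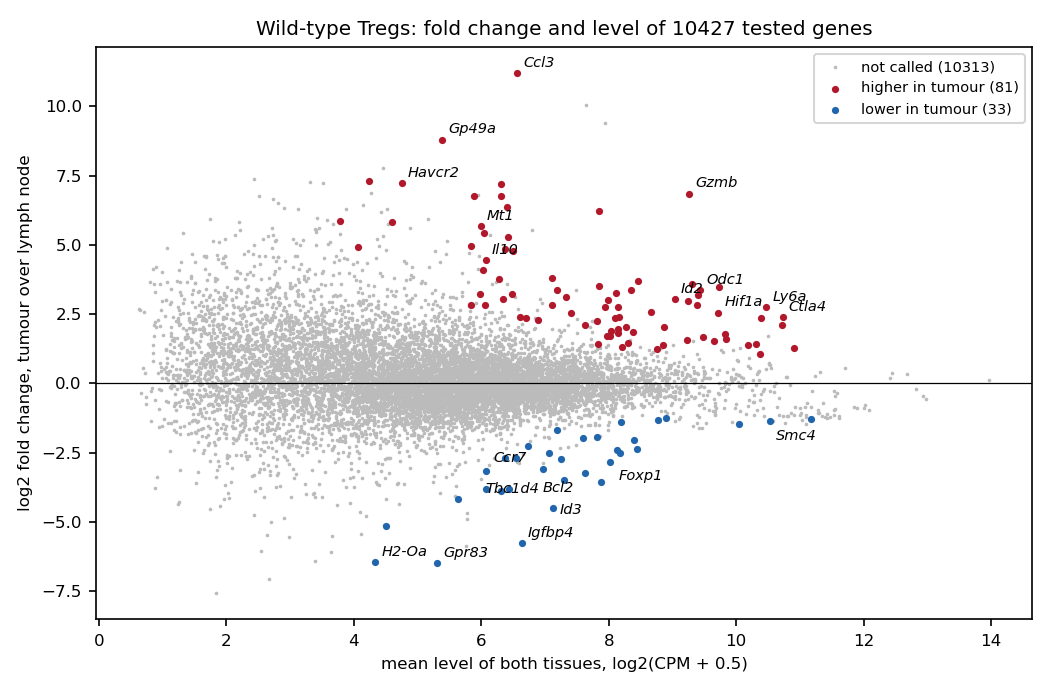
Log2 fold change of tumour over lymph node (y axis) against the mean level of both tissues as log2(CPM + 0.5) (x axis) for 10427 genes. Red points are the 81 genes called higher in the tumour and blue points the 33 called lower. Calls lie toward the right, where the genes are better read, and the higher genes reach larger folds than the lower ones.

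Among homing genes, receptors that serve passage through lymphoid organs, such as Ccr7 and S1pr1, fell and some that serve inflamed tissue rose, with 5 of 18 tested members higher and 3 lower. Ccr7, the receptor that leads T cells into lymph nodes, stood at 18.7, 31.03, 35.9, 12.4 and 41.8 CPM in tumour and 185, 168, 266, 279 and 215 CPM in node Tregs. No tumour library reached any node library (adjusted p = 0.00818 for a log2 fold change of -3.08, SE 0.44). S1pr1, which guides exit from lymphoid tissue into lymph, had no overlap at 50.4 to 218 CPM against 295 to 832 CPM (adjusted p = 0.035 for a log2 fold change of -2.53, SE 0.48).

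Among the receptors for tissue, Cxcr6, whose ligand Cxcl16 is made by myeloid and stromal cells, stood at 465, 463, 448, 691 and 419 CPM in the tumour and 44.2, 74.1, 84.7, 39.6 and 31.3 CPM in the node. The lowest tumour library was well above the highest node library (adjusted p = 0.00147 for a log2 fold change of 3.26, SE 0.34). Ccr2, the receptor for Ccl2, ran from 644 to 3074 CPM against 37.5 to 473 CPM (adjusted p = 0.0193 for a log2 fold change of 3.47, SE 0.58). Cxcr3, which binds the interferon-induced chemokines Cxcl9 and Cxcl10, and P2ry10, a receptor for lysophospholipids, rose by 3.00 and 1.26 on the log2 scale (adjusted p = 0.0494 and 0.0341). The 5 higher homing genes numbered 3, 4, 1, 6 and 1 without replicates 2, 3, 4, ds1 and ds2, and the 3 lower ones 0, 2, 0, 3 and 2.

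Of 23 tested transcription factors of quiescent and naive T cells, 7 fell and none rose, with a list median of -0.81 against 0.08 over all tested genes. Id3, an inhibitor of E proteins that keeps T cells from effector fates, stood at 4.63, 10.7, 4.71, 14.4 and 31.2 CPM in tumour and 157, 367, 132, 153 and 519 CPM in node Tregs. It had the lowest adjusted p of all genes that fell (adjusted p = 0.000982 for a log2 fold change of -4.50, SE 0.43). Foxp1, which maintains naive T cell quiescence, stood at 64.8, 66.1, 53.9, 46.2 and 69.4 CPM against 319, 447, 411, 829.8 and 279.8 CPM and did not overlap (adjusted p = 0.00445 for a log2 fold change of -2.82, SE 0.36). The others were Tcf7 and its partner Lef1 (-2.72 and -2.04), Bach2, a repressor that restrains effector differentiation (-3.80), Klf2, which drives S1pr1 (-2.41), and the chromatin organizer Satb1 (-1.92), with adjusted p of 0.0168, 0.0332, 0.0498, 0.0439 and 0.00921. Lef1 in tumour ds1, at 526.5 CPM, lay above 3 node libraries, whereas Satb1, Tcf7, Bach2 and Klf2 had no overlap. The list had 2, 4, 1, 7 and 5 lower members without replicates 2, 3, 4, ds1 and ds2.

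**Figure D2:**
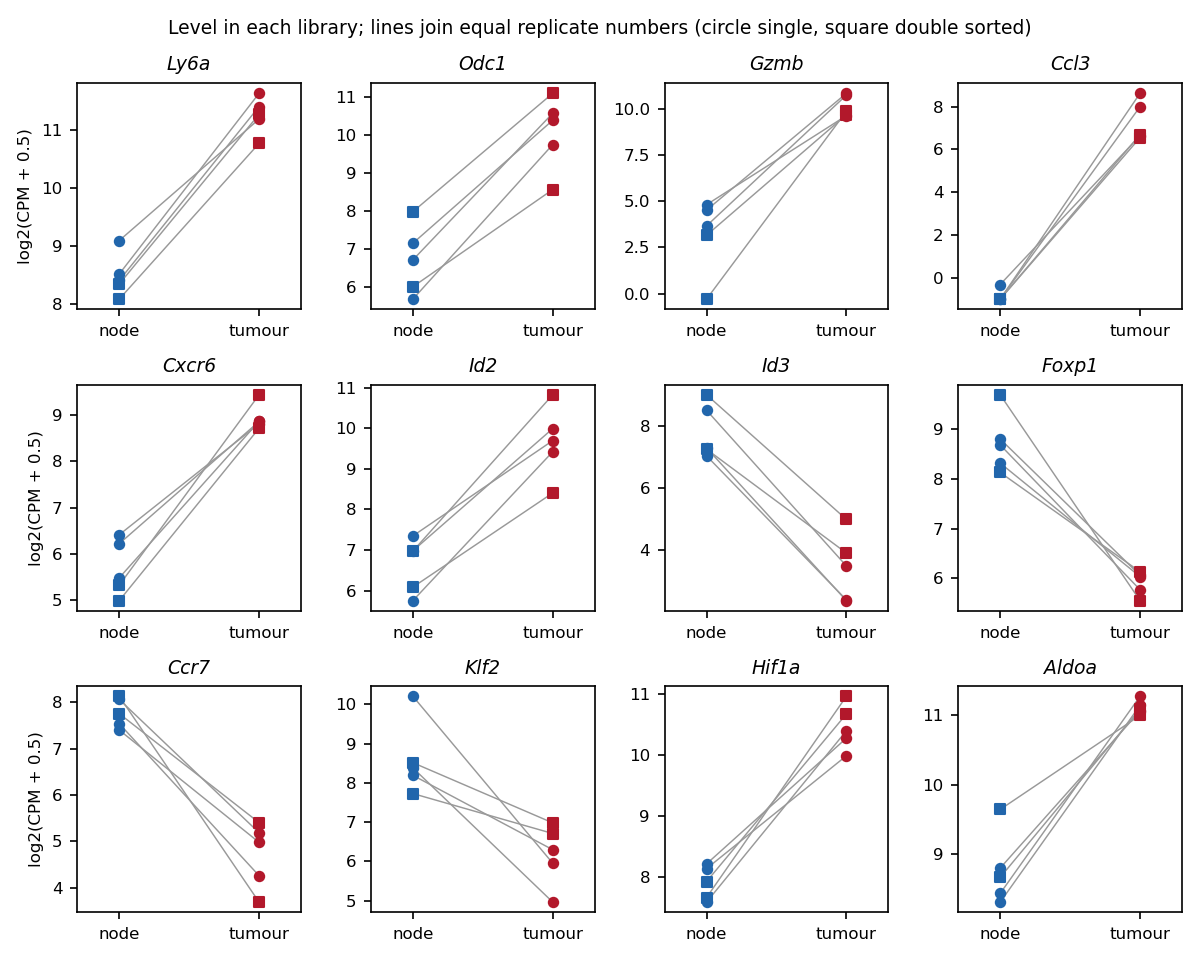
Level of 12 genes in each library as log2(CPM + 0.5) (y axis, its own range in each panel, not starting at 0) in lymph node (blue) and tumour (red) Tregs. Lines join equal replicate numbers, circles are single-sorted and squares double-sorted libraries. In all 12 panels all 5 lines run the same way, upward for 8 genes and downward for Id3, Foxp1, Ccr7 and Klf2.

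Several other genes of resting Tregs and lymphocytes fell in the tumour. Gpr83, an orphan receptor expressed by Tregs, stood at 0, 0.216, 0.380, 2.48 and 10.2 CPM in the tumour and 87.1, 17.4, 74.8, 116 and 81.03 CPM in the node (adjusted p = 0.0463 for a log2 fold change of -6.48, SE 1.33). H2-Oa, a chain of the MHC class II antigen-loading regulator that is abundant in B cells, stood at 0.0819, 8.42, 0.0759, 0.248 and 0.425 CPM against 28.8, 79.2, 27.2, 25.5 and 27.3 CPM (adjusted p = 0.0311 for a log2 fold change of -6.46, SE 1.19). Without the block Gpr83 and H2-Oa stood at -4.89 and -4.29 (adjusted p = 0.0762 and 0.144). H2-Oa was lower in the tumour in both double-sorted pairs, in which B cell markers summed to 15.4 and 19.1 CPM in the tumour and 7.02 and 21.5 CPM in the node, but these pairs alone did not call it (adjusted p = 0.534). The part of B cells in its change was not tested. Igfbp4, an insulin-like growth factor binding protein typical of naive CD4 T cells, stood at 6.06, 13.6, 11.1, 0.248 and 0 CPM against 169, 179.8, 182, 293 and 131 CPM (adjusted p = 0.0332 for a log2 fold change of -5.75, SE 1.08). Igf1r, the receptor for that growth factor, fell too, by 3.17 on the log2 scale (adjusted p = 0.0375). Bcl2, which protects lymphocytes from death, was the called member among 14 tested genes of its family, at 39.7, 57.96, 66.9, 10.2 and 27.6 CPM against 220.4, 336, 277, 509.9 and 415 CPM (adjusted p = 0.0191 for a log2 fold change of -3.24, SE 0.53), while Bcl2a1b stood at 1.14 on the log2 scale (adjusted p = 0.129). Tbc1d4, which holds glucose transporters inside the cell, fell by 3.50 on the log2 scale (adjusted p = 0.0186). Ly6c1, a surface protein of T cell subsets, fell by 3.88 (adjusted p = 0.0481). Also among the 12 largest falls without overlap were Mtss1, a membrane-bending protein (-4.18), Ift80, a cilium transport protein (-3.57), and the predicted genes Gm14085 and Gm4956 (-5.14 and -3.83), with adjusted p of 0.0452, 0.00517, 0.0456 and 0.0125.

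Some genes of glycolysis and of the response to low oxygen rose in the tumour. Of 24 tested glycolysis genes 7 were higher and none lower, with a list median of 1.64, and 14 were higher in all 5 pairs, as were 937 of all tested genes (8.99%). Of 26 tested genes of oxygen sensing 3 were higher, with a median of 0.97. Hif1a (chromosome 12, 73901375 to 73947530, plus strand, mm10) encodes the oxygen-regulated subunit of the transcription factor that binds hypoxia response elements, and Aldoa (chromosome 7, 126795234 to 126800751, minus strand) encodes aldolase, which splits the phosphorylated sugar. Hif1a, Aldoa, Pgk1 and Pkm are shown with the 250 bases before a RefSeq transcription start (GRCm38.p6), because the hypoxia response core ACGTG lay there, and capitals mark each match to a searched motif. These were ACGTG on both strands, with overlapping matches in Hif1a, and, in Aldoa, the AP-1 motif TGANTCA.

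Hif1a (chr12:73907617-73907866, plus strand): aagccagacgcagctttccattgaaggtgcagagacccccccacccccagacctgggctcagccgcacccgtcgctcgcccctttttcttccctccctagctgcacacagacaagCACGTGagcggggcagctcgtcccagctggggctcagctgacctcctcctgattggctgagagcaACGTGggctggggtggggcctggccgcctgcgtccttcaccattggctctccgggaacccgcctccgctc
Aldoa (chr7:126799255-126799504, minus strand): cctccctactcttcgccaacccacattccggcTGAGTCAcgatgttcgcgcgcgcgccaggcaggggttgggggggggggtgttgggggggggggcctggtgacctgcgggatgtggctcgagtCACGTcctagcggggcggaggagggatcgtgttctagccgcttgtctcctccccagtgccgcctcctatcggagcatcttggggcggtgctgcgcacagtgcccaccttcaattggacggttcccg
Pgk1 (chrX:106186850-106187099, plus strand): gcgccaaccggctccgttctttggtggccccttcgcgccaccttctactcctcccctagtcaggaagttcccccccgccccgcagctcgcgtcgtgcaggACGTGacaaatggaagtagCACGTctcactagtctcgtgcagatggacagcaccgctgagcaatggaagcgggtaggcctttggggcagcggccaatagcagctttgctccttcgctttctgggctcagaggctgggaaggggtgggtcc
Pkm (chr9:59656977-59657226, plus strand): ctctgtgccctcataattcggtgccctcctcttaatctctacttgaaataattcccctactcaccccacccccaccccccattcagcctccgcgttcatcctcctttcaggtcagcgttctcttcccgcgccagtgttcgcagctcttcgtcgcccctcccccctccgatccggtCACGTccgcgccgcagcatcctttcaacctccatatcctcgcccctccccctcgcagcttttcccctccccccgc

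ACGTG was in a window of 7 of the 9 called glycolysis and hypoxia genes with a window (Aldoa, Bnip3, Hif1a, Ldha, Pgk1, Pkm and Slc16a3), where a gene can have several starts. It was in 16.6% of all 32851 windows and in a window of 26.2% of the 7856 tested genes with one. The core lay 126 bases before the start in Aldoa, 75 in Pkm, 150 and 131 in Pgk1, and 135, 134 and 70 in Hif1a. A match of letters is no evidence of binding. The interferon-stimulated response motif was searched on both strands as GAAA, any 2 bases and GAAA again. It was in 2 of 3 called type I interferon genes with a window (Ifit1 and Ifit3), against 3.32% of tested genes with one and 2.98% of all windows. The FOXO motif TGTTTAC was found in 0 of 11 called naive and homing genes. That set holds genes that fell and genes that rose, such as P2ry10. The motif was in 2.53% of tested genes and 3.17% of all windows, and 11 genes are too few to tell 0 from these shares. AP-1 was also in 2 of the 3 interferon genes (Ifit3 and Ifitm3), and in 1 of 9 called glycolysis and hypoxia genes and 1 of 11 naive and homing genes. It was in 4.98% of tested genes and 6.75% of all windows.

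Hif1a itself was read at 1233, 1009, 1341, 1984 and 1623 CPM in the tumour and 295, 279.6, 191, 201 and 241 CPM in the node, far apart in every pair (adjusted p = 0.00177 for a log2 fold change of 2.56, SE 0.28). Aldoa stood at 2481, 2142, 2266, 2049.7 and 2187 CPM against 345, 445, 316, 799.8 and 405 CPM, with the node ds1 library nearest to the tumour (adjusted p = 0.0025 for a log2 fold change of 2.35, SE 0.27). Tpi1, triose phosphate isomerase, and Pgk1, phosphoglycerate kinase, rose by 2.75 and 2.04 on the log2 scale (adjusted p = 0.00473 and 0.0183). Pkm, pyruvate kinase, Gapdh, and Ldha, which turns pyruvate into lactate, rose by 1.55, 1.61 and 1.42 (adjusted p = 0.0191, 0.0375 and 0.0205). Slc16a3, a lactate exporter, stood at 12.1 to 52.7 CPM in the tumour and 0.151 to 3.78 CPM in the node (adjusted p = 0.0418 for a log2 fold change of 4.93, SE 0.98). The Hif1a targets Bnip3, a mitophagy receptor, and Ero1l, an oxidase of protein folding, rose by 3.77 and 3.23, but tumour ds1 held 2.48 and 16.9 CPM of them against 131.5 CPM or more and 140.6 CPM or more in the other 4 tumour libraries. Aldoa, Gapdh and Tpi1 share exon bases with genes on the opposite strand, and the strand setting is not given in the sources used here. The 7 glycolysis calls were 2, 4, 2, 12 and 2, and the 3 calls of oxygen sensing 1, 2, 1, 3 and 1, without replicates 2, 3, 4, ds1 and ds2. Without the filter on low counts 10 of 25 glycolysis genes were higher with edgeR, and 13 with 1 lower with DESeq2, which used its own filter.

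Respiratory chain subunits, the partners of glycolysis in energy supply, had 0 of 39 tested members called and a median of -0.04. Over all tested genes 1.09% were called, so this count lies near that share. In cholesterol and fatty acid synthesis 1 of 25 was called, Hmgcs1, an early enzyme of sterol synthesis (adjusted p = 0.03 for a log2 fold change of 2.28, SE 0.42). The list median was 1.63 and 22 members lay above 0, as did 5588 of all 10427 tested genes.

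The chemokine Ccl3 and the receptor gene Gp49a had the largest log2 fold changes of the 114 genes. Of 21 tested cytokines and chemokines 5 were higher (median 2.38), and of 17 tested genes of cytotoxic granules and killer receptors 7 were (median 2.17). Ccl3, a chemokine that attracts leukocytes, stood at 393, 99.1, 254, 92.9 and 103 CPM in the tumour and 0, 0.303, 0, 0 and 0 CPM in the node, where 4 reads were found over all 5 libraries (adjusted p = 0.000982 for a log2 fold change of 11.20, SE 1.04). Ccl4, its close relative, stood at 596, 235, 605, 609 and 179 CPM against 8.09, 0.227, 9.43, 40.7 and 2.30 CPM (adjusted p = 0.00257 for a log2 fold change of 6.22, SE 0.73), and reads shared by the pair cannot be assigned with certainty. Ccl5, a T cell chemokine, had no overlap either, at 748 to 1879 CPM against 25.02 to 284 CPM (adjusted p = 0.00445 for a log2 fold change of 3.57, SE 0.46). Cxcl10, an interferon-induced chemokine, rose by 4.97 (adjusted p = 0.0363), and the remaining call, Il10, is given with the suppressive mediators. Without replicates 2, 3, 4, ds1 and ds2 the calls in cytokines and chemokines were 3, 4, 3, 8 and 3 higher, with 1 lower without ds1, and those in cytotoxic genes 3, 4, 3, 7 and 3 higher.

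Gzmb, the granzyme B protease that Tregs can use against target cells, stood at 1695, 786, 1814, 925 and 814 CPM in the tumour and 12.2, 27.6, 22.4, 0.319 and 8.44 CPM in the node (adjusted p = 0.00177 for a log2 fold change of 6.85, SE 0.75). Nkg7, a membrane protein of cytotoxic granules, stood at 1349.6, 1347, 1097, 517 and 1034 CPM against 131, 314, 123, 74.1 and 90.2 CPM (adjusted p = 0.000982 for a log2 fold change of 2.99, SE 0.29). Neither gene overlapped between tissues. The receptor genes Gp49a and Lilrb4, which are close copies of each other, rose by 8.80 and 6.38 (adjusted p = 0.00356 and 0.0296). The serine protease inhibitors Serpina3f and Serpina3g rose by 6.76 and 3.71 (adjusted p = 0.0275 and 0.0296). Srgn, the proteoglycan that packs granules, rose by 1.39 (adjusted p = 0.0272). Summed NK cell markers ranged from 2.12 to 112 CPM in the tumour (median 46.1) and 0.798 to 101 CPM in the node (median 3.26). CD8 T cell markers ranged from 17.2 to 156 CPM (median 126) and 35.1 to 205 CPM (median 91.6). Both ranges overlapped, but the medians were higher in the tumour, most so for NK cells. The part of NK and CD8 T cells in these results was not tested.

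Suppressive mediators had 5 of 17 tested members higher and a median of 2.40. Besides Gzmb they were Ctla4, Il10, Fgl2 and Entpd1. Ctla4, which removes costimulatory ligands from antigen-presenting cells, stood at 2936, 1426, 2173, 6989 and 969.7 CPM in the tumour and 305, 887, 298, 653 and 312 CPM in the node (adjusted p = 0.0212 for a log2 fold change of 2.40, SE 0.41). Its lowest tumour library lay above the highest node library, with tumour ds1 far above the rest. Il10, an anti-inflammatory cytokine, stood at 278, 54.9, 201, 59.1 and 33.98 CPM against 18.1, 9.69, 10.4, 0.479 and 0.921 CPM (adjusted p = 0.0191 for a log2 fold change of 4.44, SE 0.73). Fgl2, a secreted suppressor of T cells, rose by 3.50, and Entpd1 (CD39), which starts the breakdown of ATP to adenosine, by 3.03 (adjusted p = 0.00809 and 0.0332). Under limma on the authors' log2 values the log2 fold change of Ctla4 was -0.40. The 5 calls were 2, 5, 2, 6 and 3 without replicates 2, 3, 4, ds1 and ds2.

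A few receptors that set T cell activation rose as well. Of 22 tested checkpoint and CD28 family genes 3 were higher, Ctla4, Havcr2 and Pdcd1, against 0.777% of all tested genes. Havcr2 (TIM-3) stood at 56.5, 71.5, 76.5, 9.44 and 47.6 CPM in the tumour and 0.420, 1.06, 0.0983, 0.160 and 0.153 CPM in the node (adjusted p = 0.00629 for a log2 fold change of 7.23, SE 1.001), and Pdcd1 (PD-1) at 162, 229.9, 306, 762 and 346 CPM against 29.00, 209.6, 40.9, 91.2 and 65.5 CPM (adjusted p = 0.0418 for a log2 fold change of 2.25, SE 0.45). Node replicate 3 exceeded tumour replicate 2 for Pdcd1. Of 16 tested TNF receptors 2 were higher, Tnfrsf9 (4-1BB), at 1602, 1111, 1379, 1185 and 712 CPM against 67.7, 268, 69.5, 201 and 122 CPM (adjusted p = 0.00502 for a log2 fold change of 3.19, SE 0.42), and Tnfrsf18 (GITR), at 1266 to 1654 CPM against 281 to 558 CPM (adjusted p = 0.0057 for a log2 fold change of 1.80, SE 0.24). Tnfrsf4 (OX40) stood at 1.70 (adjusted p = 0.0783), with 4 of 5 pairs higher in the tumour. The 3 checkpoint calls were 0, 3, 0, 5 and 1 higher without replicates 2, 3, 4, ds1 and ds2, with 2 lower without ds1, and the 2 TNF receptor calls 1, 2, 1, 4 and 2. The Treg identity list, with 2 of 19 higher and 1 lower, had a median of -0.05. Nrp1, which marks many thymus-derived Tregs, stood at 127, 206, 117, 120 and 291 CPM in the tumour and 256, 435, 311, 391 and 408 CPM in the node, lower in all 5 pairs but not called (adjusted p = 0.0906 for a log2 fold change of -1.14, SE 0.28). With edgeR it was called without the filter on low counts (-1.16, adjusted p = 0.0481). It was not called without the block (adjusted p = 0.253) or with DESeq2 (adjusted p = 0.169).

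Effector transcription factors rose in 5 of 28 tested members and fell in none, with a median of 1.01. Id2, an inhibitor of E proteins like Id3 but tied to effector cells, stood at 831, 687, 1021, 1819 and 339 CPM in the tumour and 162, 53.4, 126, 125 and 67.4 CPM in the node (adjusted p = 0.00147 for a log2 fold change of 3.05, SE 0.32). Id2 and Id3 thus moved in opposite directions in all 5 pairs. Prdm1 (Blimp-1), a regulator of effector Tregs, and Bhlhe40, which supports cytokine production, rose by 3.23 and 3.38, Runx2 by 2.83 and Maf, which promotes Il10, by 1.66 (adjusted p = 0.0443, 0.0178, 0.0463 and 0.0423). Of 32 tested genes induced by the T cell receptor 2 rose, Fosl2, an AP-1 subunit, and Crem, a cAMP-responsive factor (5.27 and 2.77, adjusted p = 0.0456 and 0.0283). Of 39 tested signalling proteins of that receptor 1 was higher, Sla, an adaptor that lowers receptor signals (1.54, adjusted p = 0.0205), and the list median was -0.01. The 5 calls among effector factors were 1, 3, 1, 6 and 1 without replicates 2, 3, 4, ds1 and ds2.

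Interferon-stimulated genes were shifted upward as a list. All 29 tested type I interferon-stimulated genes lay above 0, as did 5588 of all 10427 tested genes. The list median was 1.39, and 18 members were higher in all 5 pairs, against 8.99% of all tested genes. The test called 4 of the 29. Ifitm3, which blocks virus entry, stood at 163, 129, 269.8, 32.8 and 34.4 CPM in the tumour and 3.99, 0.757, 19.5, 0 and 3.07 CPM in the node (adjusted p = 0.0227 for a log2 fold change of 5.45, SE 0.94), and its tumour values were highest in the 3 single-sorted libraries, in which melanoma markers were also high. The part of those markers was not tested. Ifit3 stood at 227, 502, 415, 358 and 775 CPM against 76.3, 110.1, 103, 111 and 146 CPM with no overlap (adjusted p = 0.00563 for a log2 fold change of 1.98, SE 0.27), and its neighbour Ifit1 and Ifi27l2a rose by 1.83 and 1.28 (adjusted p = 0.0416 and 0.043). The 4 calls were 1, 3, 0, 12 and 1 without replicates 2, 3, 4, ds1 and ds2.

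Of 34 tested genes of the interferon gamma response and antigen presentation 3 rose, Cxcl10 and the GTPases Iigp1 and Gbp6. Iigp1 stood at 526, 659.8, 799, 662 and 1085 CPM against 128, 153, 144, 275 and 225 CPM (adjusted p = 0.00451 for a log2 fold change of 2.03, SE 0.26). Ifngr1, which binds interferon gamma at the cell surface, stood at 701, 1199.9, 677, 1000.5 and 2359 CPM in the tumour and 117, 132, 144, 168 and 204 CPM in the node, with no overlap (adjusted p = 0.00102 for a log2 fold change of 2.82, SE 0.27). The Th1 list, which holds Ifngr1, Cxcr3 and Havcr2 and had 4 higher members of 15 tested, had a median of 2.69. Without replicates 2, 3, 4, ds1 and ds2 it had 2, 3, 1, 8 and 1 higher members, and the interferon gamma response list 0, 2, 0, 4 and 0. Ifng itself was read at 149, 79.99, 136, 164 and 20.2 CPM against 2.10, 8.25, 3.83, 0 and 5.22 CPM, without overlap, and was not called (adjusted p = 0.0888 for a log2 fold change of 5.00, SE 1.21). It was called without the block (4.81, adjusted p = 0.0138), without the filter on low counts (5.06, adjusted p = 8.95e-07) and with DESeq2 (5.04, adjusted p = 8.39e-07).

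Other called genes are given here, of which Ly6a, Mt1 and Slc15a3 belong to lists counted at the end of this paragraph. Odc1, the first enzyme of polyamine synthesis, was read at 1527, 1343, 861, 2198 and 378 CPM in the tumour and 104, 142, 50.7, 252 and 63.7 CPM in the node (adjusted p = 0.000982 for a log2 fold change of 3.38, SE 0.30). Ly6a (Sca-1), a surface protein of activated T cells, stood at 2695, 2319.6, 3156, 2456 and 1736 CPM against 337, 543, 364, 323 and 269.6 CPM (adjusted p = 0.000982 for a log2 fold change of 2.77, SE 0.24). Anxa2, a membrane-binding annexin, rose by 2.57, Mxd1, a Myc antagonist, by 3.82, and Glrx, a thiol oxidoreductase, by 3.36 (adjusted p = 0.00118, 0.00219 and 0.00356). Odc1, Mxd1 and Glrx were chosen after their values were seen. Slc15a3, a lysosomal peptide transporter, Ccrl2, an atypical chemokine receptor, and Phf11d, of an interferon-inducible family with close copies, were among the 12 largest rises without overlap (7.30, 6.76 and 5.87, adjusted p = 0.0375, 0.0254 and 0.0489). The metal-binding protein gene Mt1 stood at 115, 98.1, 389, 9.94 and 3.40 CPM against 1.58, 1.67, 10.9, 0.319 and 0 CPM (adjusted p = 0.00236 for a log2 fold change of 5.68, SE 0.66). Its tumour level was highest in the same 3 libraries as the melanoma markers given below, whose part was not tested, while both double-sorted pairs were also higher in the tumour. Receptors of cytokines had 1 of 30 tested members called (Ifngr1), and JAK, STAT and SOCS proteins 2 of 24 (Stat3 and Cish, a feedback inhibitor of STAT5 signals). GIMAP GTPases had 1 of 8 called (Gimap7), the lysosome 1 of 33 (Ctsd) and nutrient uptake 1 of 17 (Slc15a3). Integrins and adhesion molecules had 3 of 27 higher (Ly6a, Icam1 and Cd82) and 1 lower (Ly6c1). Redox genes had 2 of 26 called (Mt1 and Hmox1, which breaks down haem). Over all tested genes 1.09% were called, so a single call in a list of 30 or 33 lies near that share.

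**Figure D3:**
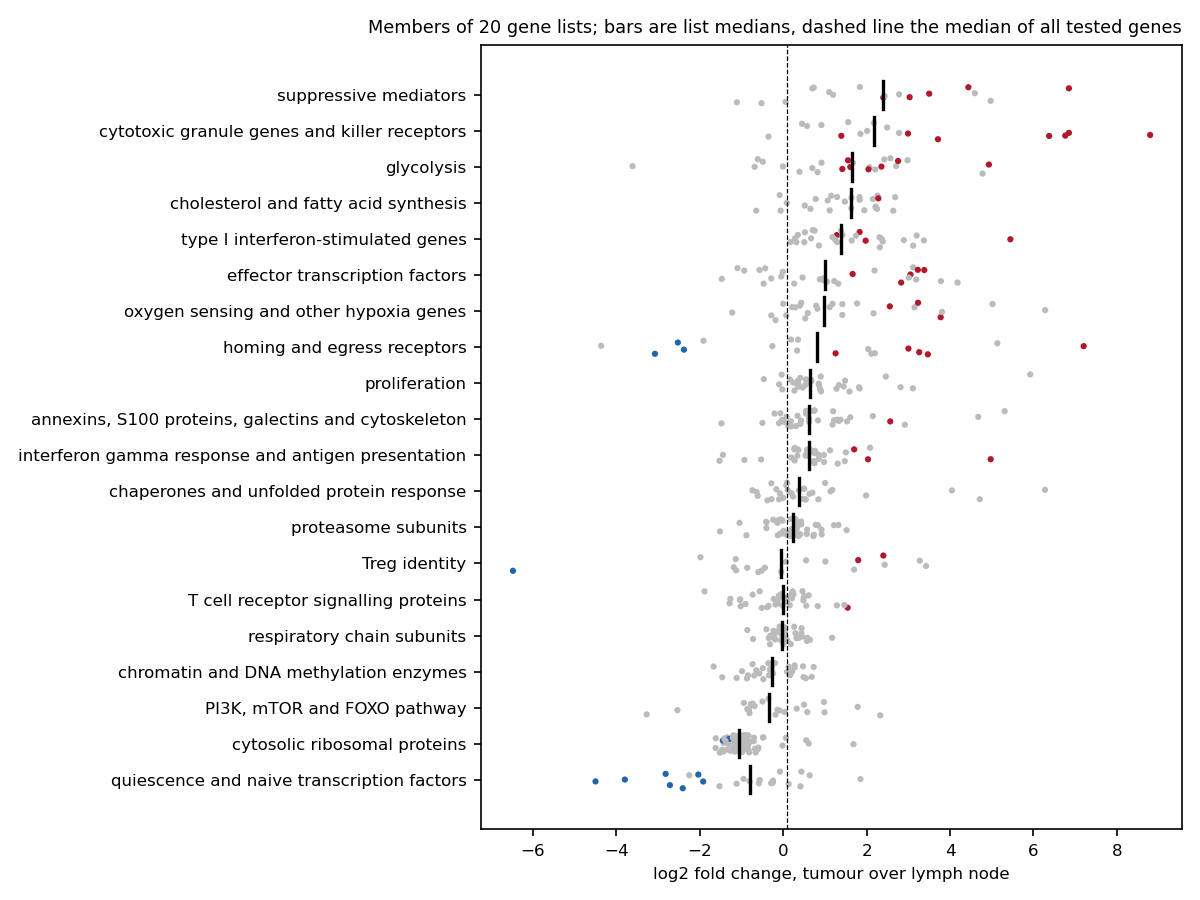
Log2 fold change of tumour over lymph node (x axis) for each tested member of 20 gene lists (rows). Red points are members called higher, blue points called lower, grey points not called, black bars the list medians and the dashed line the median of all tested genes, 0.08. The bar of suppressive mediators lies at 2.40, that of cytotoxic genes at 2.17 and that of cytosolic ribosomal proteins at -1.06.

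Cytosolic ribosomal protein genes were lower in the tumour as a list, with few single calls. Of 81 tested members 77 lay below 0, as did 4839 of all 10427 tested genes. The list median was -1.06, and 46 members were lower in all 5 pairs, against 713 of all tested genes (6.84%). Rps19 and Rpl35 were called (-1.30 and -1.45, adjusted p = 0.03 and 0.0191). These genes took 6.69%, 6.45%, 8.74%, 11.6% and 3.74% of the reads in tumour libraries and 11.99%, 21.5%, 16.4%, 15.6% and 7.78% in node libraries. The pair medians were -0.75, -2.41, -0.86, -0.15 and -1.09, so replicate 3 moved most and ds1 least. The 2 calls were 0, 9, 0, 23 and 1 without replicates 2, 3, 4, ds1 and ds2. Without the filter on low counts 64 of 85 were called lower, and in the fit of 25 libraries 66 of 82, but with DESeq2 0 of 85. Without the replicate block 0 of 81 were called with edgeR (Rps19 and Rpl35 had adjusted p = 0.097 and 0.176). The ribosomal RNA transcript Rn45s stood at 2468, 2885, 2271, 3434 and 7163 CPM in the tumour and 3022, 16852, 1426, 606 and 38186 CPM in the node. Its part in the ribosomal protein result was not tested, and such genes share sequence with many pseudogenes.

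**Figure D4:**
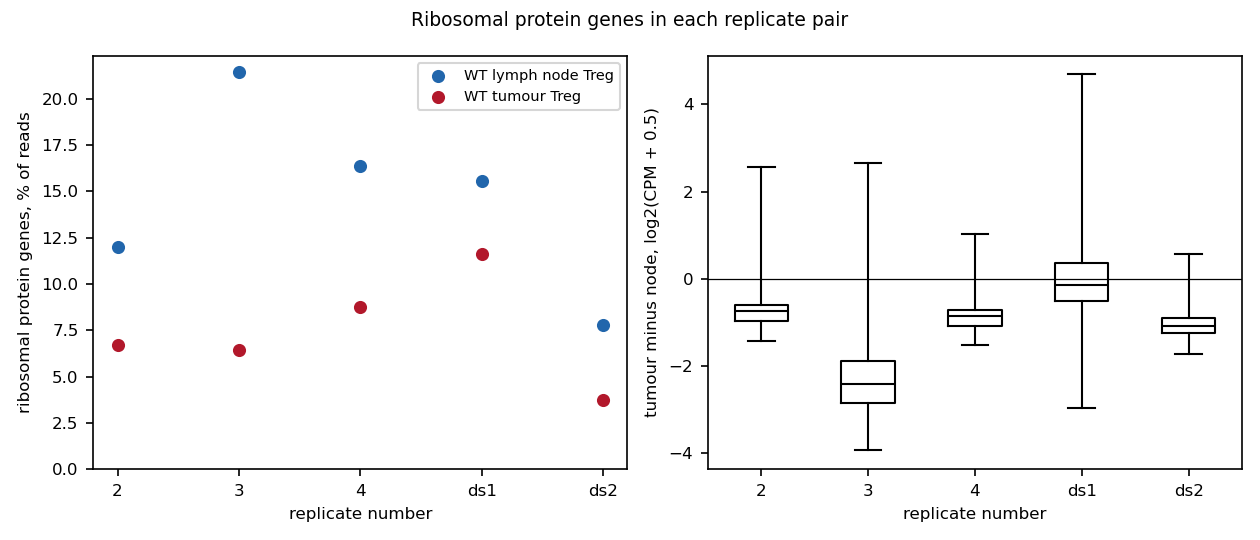
Left, share of reads in cytosolic ribosomal protein genes (y axis, %) in each library by replicate number, node in blue and tumour in red. Right, tumour minus node difference in log2(CPM + 0.5) of the 81 tested genes in each pair, with the box over the middle of the genes, the line at the median and whiskers to the extremes. The share is lower in the tumour in 5 of 5 pairs, and the median difference runs from -2.41 in replicate 3 to -0.15 in ds1.

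Lists of basic cell functions showed no single call. Over all tested genes 1.09% were called, so 0 calls in lists this small lies near that share. Proteasome subunits (46 tested, median 0.23), chaperones and unfolded protein response genes (31 tested, 0.38), chromatin and DNA methylation enzymes (31 tested, -0.27) and the PI3K, mTOR and FOXO pathway (23 tested, -0.35) had 0 called members each. Proliferation genes had 0 of 36 called, although 32 lay above 0 and the median was 0.65. Of all 10427 tested genes 5588 lay above 0. Neuropilins, semaphorins and plexins had 0 of 12 called (median 0.31).

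Melanoma markers were high in the single-sorted tumour libraries and B cell markers in the single-sorted node libraries. The 12 melanoma markers summed to 1363, 1693 and 4027 CPM in the single-sorted tumour libraries, 35.0 and 6.80 CPM in the double-sorted ones and 7.99 to 39.4 CPM in the node, where Mlana and Cited1 were at 0. The filter on low counts left 5 of the 12 to test, of which 0 were called with edgeR, but 8 of 12 were higher without that filter, 9 of 12 in the single-sorted libraries alone and 11 of 12 with DESeq2. Dct and Tyrp1 were among those tested and not called (9.39 and 10.05, adjusted p = 0.114 and 0.0721). The 10 B cell markers summed to 808, 173 and 279 CPM in single-sorted node libraries, 7.02 and 21.5 CPM in double-sorted ones and 12.1 to 19.1 CPM in the tumour. Macrophage and monocyte markers ranged from 101 to 296 CPM in the tumour and 12.6 to 302 CPM in the node. Neutrophil markers ranged from 20.2 to 45.5 CPM in the tumour and 0.197 to 7.36 CPM in the node, with S100a9 at 0 in the tumour, and fibroblast markers from 0.637 to 192 CPM and 0 to 12.3 CPM. Dendritic cell markers, which include Ccr7, ranged from 73.7 to 466 CPM and 215 to 867 CPM, endothelial markers from 14.4 to 69.2 CPM and 42.9 to 203 CPM, keratinocyte markers from 10.8 to 105 CPM and 5.46 to 35.2 CPM, and erythroid markers from 0 to 14.2 CPM and 0 to 0.958 CPM, with the haemoglobins at 0. Conventional CD4 markers, which share Igfbp4, Actn1, Tcf7 and Lef1 with the results above, ranged from 391 to 799 CPM in the tumour and 1022 to 1975 CPM in the node. The part of other cells in the tissue differences was not tested.

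In the 2 double-sorted pairs, where melanoma markers summed to 6.80 to 39.4 CPM and B cell markers to 7.02 to 21.5 CPM over both tissues, the 81 higher genes had a median of 2.69, against 2.82 in the 3 single-sorted pairs, and the 33 lower genes -2.93 against -2.62. These libraries had helped to make the calls, and all 114 genes differed the same way in every pair, so similar medians were in part set beforehand. In tumour ds1, tumour ds2, node ds1 and node ds2, NK cell markers summed to 112, 2.12, 0.798 and 3.22 CPM. Endothelial markers summed to 27.6, 69.2, 203 and 106 CPM. The part of other cells in these libraries was not tested. Fitted alone, the double-sorted pairs called 39 genes, 30 of them among the 114. The difference between sorting modes in the tissue change was tested directly. It called 0 of 10427 genes (0.00%) with edgeR, 259 at an unadjusted p below 0.05, and 72 with DESeq2. On simulated data this edgeR test recovered 0%, 2% and 32% of genes changed by 1, 2 and 4 on the log2 scale. Of its 47 calls there 5 were false. The 0 calls therefore do not show that the tissue change was equal in both sorting modes.

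**Figure D5:**
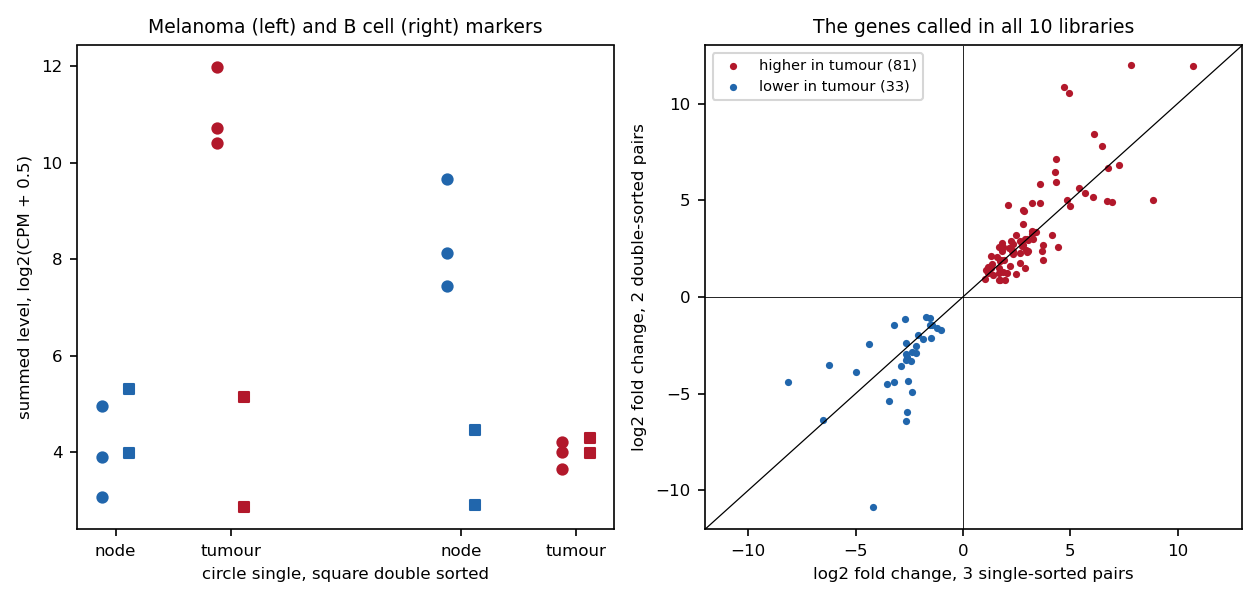
Left, summed level of melanoma and B cell markers as log2(CPM + 0.5) (y axis) in each library. Right, log2 fold change of the 114 called genes in the 3 single-sorted pairs (x axis) against the 2 double-sorted pairs (y axis), with the diagonal marking equal change. Melanoma markers are high in the 3 single-sorted tumour libraries and B cell markers in the 3 single-sorted node libraries. All 114 points lie in the quadrants of equal sign, which follows from their differing the same way in every pair.

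The same tissue comparison in Tregs labelled N, whose genotype label reads like that of the Nrp1-deficient cells of heterozygous mice, shares no library with the WT comparison. It called 264 of 10555 genes (2.50%), 167 higher and 97 lower. Of the 114 WT genes 113 were tested in N and all 113 had the same sign, where 65.9% of the 10085 genes tested in both did. The calls had 77 genes in common, 67.5% of the WT calls and 29.2% of the N calls. Ly6a, Id2 and Ctla4 had log2 fold changes of 3.16 (SE 0.15, adjusted p = 0.000196), 3.38 (SE 0.22, adjusted p = 0.000418) and 2.26 (SE 0.15, adjusted p = 0.000433) in N, and Ccr7 one of -3.43 (SE 0.29, adjusted p = 0.00128). Gpr83 and H2-Oa were not called in N, at -3.45 (SE 0.82, adjusted p = 0.0833) and -3.08 (SE 0.82, adjusted p = 0.122). The WT minus N difference in the tissue change called 0 of 11884 genes (0.00%) with edgeR, 329 at an unadjusted p below 0.05, and 201 with DESeq2. On simulated data this edgeR test recovered 0%, 10% and 50% of genes changed by 1, 2 and 4 on the log2 scale. The 0 calls therefore do not show that the change was equal in WT and N.

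The 5 libraries labelled tumour effector T cells of WT mice did not share the levels of most of these genes. Their mean was nearer to node Tregs than to tumour Tregs on the log2 scale for 79 of the 81 higher genes. The exceptions, Ctsd and Ero1l, were named after their values were seen. Of the 33 lower genes, 6 were nearer to tumour Tregs. The share over all tested genes was not counted. With all 3 groups scaled together, Gzmb stood at 0.294 ± 0.380 CPM in effector T cells (SD, n = 5), against 1202 ± 567 CPM in tumour and 14.02 ± 10.3 CPM in node Tregs. Hif1a stood at 117 ± 42.6 CPM there, against 1384 ± 225 and 240.2 ± 46.6 CPM, and Aldoa at 585 ± 146 CPM, against 2200.4 ± 386 and 454 ± 173 CPM. Ccr7 was at 619.7 ± 54.8 CPM in effector T cells, above both Treg groups. The genes had been chosen for their level in tumour Tregs, and this comparison was not tested. Gzmb lay below and Ccr7 above both Treg groups, and whether these libraries hold activated effector cells was not tested.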

How the data were processed

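RNA-seq read counts per gene symbol, deposited by the authors for all 45 samples, were made by aligning to mm10 with STAR and counting with featureCounts, as the submitters' processing notes name them. Versions, annotation and strand setting: not given in the sources used here. A table of log2 values was deposited too, filtered and normalized by the authors, and those notes name limma. It was used only as an alternative. The 10 WT Treg libraries were grouped by the labels. Testing used R 4.3.3 and edgeR 4.0.16 (filterByExpr by group, TMM, robust quasi-likelihood F test, Benjamini-Hochberg adjusted p below 0.05 over all 10427 genes tested of 23420), with the replicate number as a block and 4 residual degrees of freedom. CPM used TMM factors, and log2 CPM a pseudocount of 0.5. In the authors' log2 table replicate-number means were equal for each gene (gap at most 3.78e-13). On simulated data the tissue fit recovered 0%, 16%, 52% and 72% of genes changed by 1, 2, 4 and 6 on the log2 scale. Of its 71 calls there 1 was false. Members and gene lists were chosen with earlier results of these data known. Genes were named by a rule: the 12 largest changes each way among called genes without overlap, up to 5 called members of each list, and Foxp3, Nrp1 and Ifng. Other genes were named after their values were seen. Some members are not reported here. Alternatives were no replicate block, DESeq2 1.42.0 (all 22384 genes with a read, its own filtering), RLE size factors, other filters, other samples in the fit, limma 3.58.1 on the log2 values, and leaving out each replicate number. Coordinates are from GENCODE vM21 (mm10), which held 92.98% of the symbols, and promoter sequences from RefSeq (GRCm38.p6), which held 86 of the 114 genes. Depth limits low genes most. Overlapping genes and close copies (Ccl3 and Ccl4, Gp49a and Lilrb4, Serpina3f and Serpina3g, Ly6a and Ly6c1, the Phf11 and Ifit genes) are uncertain where reads could be split.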

Additional observations from a re-analysis of the deposited data

Results flagged for a closer look

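In 19 of 166 groups of 5 libraries tested, the highest or lowest library lay apart from the others by Dixon's ratio, and chance flags about 1 group in 20. Among tumour libraries, ds1 was low for Bnip3 (2.48 CPM), Ero1l (16.9 CPM), Havcr2 (9.44 CPM), Nkg7 (517 CPM) and Slc15a3 (4.22 CPM) and high for Cxcr6 (691 CPM), Hmox1 (198 CPM) and Lef1 (526.5 CPM), and replicate 3 was high for H2-Oa (8.42 CPM). Among node libraries, replicate 3 was high for Bhlhe40 (91.2 CPM), Ccl3 (0.303 CPM), H2-Oa (79.2 CPM) and Tpi1 (166 CPM) and low for Gpr83 (17.4 CPM) and Runx2 (3.33 CPM). Node ds1 was high for Hmox1 (9.58 CPM) and Ldha (1355 CPM) and low for Ero1l (0.319 CPM) and Stat3 (49.0 CPM).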

How the results depend on the processing

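The 114 genes called (81 higher, 33 lower) became 942 (685 and 257) with DESeq2, which also used its own filter on 22384 genes, 416 (237 and 179) with edgeR on those 22384 with no filter on low counts, 375 (179 and 196) in the fit of 25 libraries, 227 (154 and 73) in single-sorted and 39 (30 and 9) in double-sorted libraries alone, and 0 (0 and 0) with limma on the authors' log2 values (523 at an unadjusted p below 0.05). Leaving out a replicate number gave 21 to 283 genes (20 to 171 higher, 1 to 112 lower). Without the replicate block 110 were called (76 and 34), 75 of them among the 114. Deviations of same-numbered libraries from their group means correlated at 0.08, -0.055, 0.124, 0.101 and 0.425 (2, 3, 4, ds1, ds2), and only numbers 4 and ds2 correlated best with their own partner, so pairing by number was not shown. The sign was kept by 106 of 114 genes with the authors' log2 values, where Anxa2 was -0.31, Bhlhe40 -0.24, Cish -0.36, Ctla4 -0.40, Foxp3 -0.15 and Maf -0.23; the cause was not tested. Of 1160 values of 83 named genes under the alternatives, 754 kept their side of the threshold, 392 lost it, 8 gained it and 6 reversed. The median of all genes, 0.08, was 0.29 without the filter and 0.22 with DESeq2. The WT minus N difference called 0 genes, 201 with DESeq2, 6 with no filter and 0 without any one replicate number. The double minus single sorting difference called 0 genes, 72 with DESeq2, 5 with no filter and 0 to 610 without one replicate number, where 610 was without ds2 and 2 without ds1, each leaving 1 double-sorted pair assumed to vary like the others.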
